A study of Mus musculus with 96 samples.

Results

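Candesartan was given to mice that had a sham procedure and no brain injury, and the ipsilateral hypothalamus was sequenced 29 days post-injury (dpi), the day counted from the sham procedure. The 8 libraries were chosen by their labels (hypothalamus, 29 dpi, sham, drug or vehicle) out of the 96 libraries of the series, with 4 in each group. Sham + VH mice had anesthesia and a scalp incision without opening of the skull and received vehicle (saline with Na2CO3). Sham + CD mice had the same procedure and received candesartan at 0.1 mg/kg/day. In both groups a first intraperitoneal dose came 6 hours after the procedure, an osmotic pump was placed under the skin at 24 hours for continuous infusion, and the brain was taken after perfusion with cold saline. All were male C57BL/6 mice, obtained at 8 to 10 weeks of age, and their age at sampling is not given in the sources used here. The injured mice used for comparison, TBI + VH and TBI + CD, had a controlled cortical impact (a piston-driven contusion of the exposed cortex, here TBI) and the same dosing, again with 4 libraries per group. Each library came from 1 mouse, so the p-values below measure the spread between mice within these groups. No blood pressure or drug level accompanied the libraries used here. The authors chose the 4 RNA samples of highest quality in each group for sequencing.

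Candesartan blocks the angiotensin II type 1 (AT1) receptor. Angiotensinogen is cut by renin and then by angiotensin-converting enzyme to angiotensin II, which acts on AT1 receptors to raise blood pressure, thirst and the release of vasopressin. The hypothalamus holds AT1 receptors in the paraventricular nucleus and along the third ventricle, where ependymal cells with motile cilia and tanycytes line the wall. Immediate early genes, such as Fos and Egr1, are transcribed within minutes of neuronal activity and their RNA is short-lived, so their level is widely used as a readout of recent activity of neurons.

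The 8 libraries held from 15921921 to 34942728 counted reads, and 17165 of the 32594 listed genes passed the filter on low counts. Levels are given as CPM, the read count of a gene relative to the scaled read total of its library, and differences as log2 fold changes of Sham + CD over Sham + VH with their standard error. The libraries carried the neuropeptides of the labelled region. The median over all hypothalamus libraries was 236 CPM for Avp (vasopressin) against 9.06 CPM in thalamus and 0.585 CPM in hippocampus, and for Oxt (oxytocin) it was 165, 3.11 and 0.167 CPM. Pmch (melanin-concentrating hormone) separated hypothalamus from thalamus less, at 364 against 217 CPM.

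Some libraries stood apart from the others of their group, and in the sham mice this ran with the drug. The first principal component of the 16 hypothalamus libraries at 29 dpi took 44.8% of the variance and was led by Tmem212 and Ccdc153, genes of motile cilia. The summed level of 26 genes of motile cilia and ependyma was 318, 378, 284 and 299 CPM in Sham + VH replicates 1 to 4. In Sham + CD it was 278, 76.4, 96.4 and 103 CPM. Sham + CD replicates 2, 3 and 4 were therefore low, as were TBI + VH replicate 4 at 70.9 CPM and TBI + CD replicate 4 at 73.4 CPM, while the other 11 libraries lay between 258 and 419 CPM. In the sham mice 3 of 4 drug libraries were low against 0 of 4 vehicle libraries, and in the injured mice 1 of 4 in each group was. Leaving out the 3 low Sham + CD libraries would leave 1, so a second fit, with the mean log2 level of these cilia genes as a covariate (the covariate fit), was run beside the main one. Its value is given with the genes at an unadjusted p under 0.05 that it moves by over 1.5 times or past that p. The score was 2.90 to 3.28 in Sham + VH and 2.85, 0.35, 0.99 and 1.16 in Sham + CD replicates 1 to 4. It thus largely followed the drug in sham mice, and it was measured after treatment. The covariate fit therefore cannot separate an effect of candesartan on these cells from a difference in dissection.

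With edgeR's quasi-likelihood test no gene passed an adjusted p of 0.05 with an absolute log2 fold change above 0.32 (0% of 17165 genes, smallest adjusted p 0.336). DESeq2 on the same libraries called 9 genes, 5 higher and 4 lower in Sham + CD, which is 0.0558% of the 16119 genes to which it gave an adjusted p. Differences at an unadjusted p under 0.05 were found by edgeR for 1051 genes that were higher in Sham + CD (6.12%) and for 1218 that were lower (7.1%), and by DESeq2 for 2231 genes in all. The 4 Sham + CD libraries lay wholly above the 4 Sham + VH libraries for 781 genes (4.55%) and wholly below them for 807 (4.7%). The covariate fit gave 673 genes at an unadjusted p under 0.05, 351 higher (2.04%) and 322 lower (1.88%). The genes below are therefore described by their values in each library, and the words higher and lower stand for direction in these libraries.

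Immediate early genes supplied 2 of the 9 genes that DESeq2 called, Egr1 and Egr3. Of 40 genes, all 40 were tested, 9 were higher in Sham + CD at an unadjusted p under 0.05 (22.5% against 6.12% of all genes) and 0 were lower. The groups did not overlap for 5 of them (12.5% against 4.55%). The median log2 fold change of the list was -0.03 against 0.0005 for all genes, so that a part of its members carries the difference. In the covariate fit 6 of the 40 were higher (15% against 2.04% of all genes): Egr1, Egr3, Egr4, Junb, Fos and Fosb, of which Fosb was not among the 9. DESeq2 put 10 of the 40 under an unadjusted p of 0.05, the 9 and Nr4a1 (all higher, as were 4.36% of the 24052 genes it tested). The members that were higher encode zinc finger factors of the Egr family, AP-1 factors, a cytoskeletal protein of dendrites and phosphatases that act on MAP kinases.

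Egr1 encodes a zinc finger transcription factor that neurons induce within minutes of stimulation. Its level was 34.1, 35.2, 29.0 and 32.3 CPM in Sham + VH replicates 1 to 4, a mean of 32.7 ± 2.73 (SD, n = 4). In Sham + CD it was 45.9, 56.1, 58.0 and 64.7 CPM, a mean of 56.2 ± 7.75 (SD, n = 4). Every Sham + CD library exceeded every Sham + VH library. The log2 fold change was 0.79 ± 0.14 (a 1.73-fold higher level, 95% confidence interval 0.49 to 1.09 on the log2 scale), with an unadjusted p of 3.11e-05. The adjusted p was 0.336 with edgeR and 0.000297 with DESeq2. It was 0.65 on the log2 scale with the cilia score as a covariate, and 0.71 to 0.87 when each library was left out in turn.

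Egr3 (chr14:70077203-70082614, plus strand, GRCm38) encodes a related factor that acts downstream of neuronal activity. It stood at 2.76, 3.61, 3.31 and 2.64 CPM in Sham + VH and at 5.56, 5.14, 8.38 and 4.68 CPM in Sham + CD. The groups were separate, with replicate 3 the highest of the candesartan libraries. The difference was 0.94 ± 0.18 (1.92-fold, unadjusted p 7.38e-05, adjusted p 0.336 with edgeR and 0.00721 with DESeq2), and 0.81 with the cilia score as a covariate. These levels rest on 51 to 150 reads per library. Sham + CD replicate 3 also held the highest sum of striatal neuron genes, at 357 CPM against 229 to 258 CPM in the other sham libraries. The Egr3 difference was 0.73 to 1.05 when each library was left out in turn.

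Egr4 (chr6:85511121-85513589, minus strand), a further member of this family, was at 2.15, 1.74, 1.54 and 1.29 CPM in Sham + VH and at 1.91, 2.94, 3.02 and 3.17 CPM in Sham + CD. Replicate 1 of Sham + CD lay within the vehicle range and the other 3 lay above it, and the difference was 0.71 ± 0.19 (unadjusted p 0.00186), and 0.46 in the covariate fit (unadjusted p 0.0303). Junb (chr8:84974484-84978718, minus strand) encodes an AP-1 subunit. It was at 14.4, 10.3, 12.6 and 11.2 CPM in Sham + VH against 15.01, 15.7, 16.8 and 19.7 CPM in Sham + CD, with no overlap (0.46 ± 0.13, unadjusted p 0.00293, and 0.30 with an unadjusted p of 0.0373 in the covariate fit). Arc (chr15:74669083-74672570, minus strand), whose product sits at synapses and in dendrites, was at 18.6, 16.6, 15.4 and 18.6 CPM against 20.8, 28.1, 19.6 and 22.2 CPM. Its groups were also separate, by little at the nearest pair, and the difference was 0.40 ± 0.14 (unadjusted p 0.0121). The difference of Arc was 0.17 (unadjusted p 0.184) with the cilia score as a covariate.

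Fos (chr12:85473890-85477273, plus strand) encodes the AP-1 subunit most used to map active neurons. It was at 20.1, 11.6, 9.05 and 10.1 CPM in Sham + VH and at 17.1, 15.6, 18.6 and 21.3 CPM in Sham + CD. The groups overlapped because Sham + VH replicate 1 was as high as the candesartan libraries (0.50 ± 0.22, unadjusted p 0.0335). The value of Fos was 0.84 without Sham + VH replicate 1 and 0.36 (unadjusted p 0.124) without Sham + VH replicate 3. Dusp5 (chr19:53529109-53542431, plus strand), a phosphatase that acts on ERK in the nucleus, stood at 0.969, 0.685, 1.20 and 0.983 CPM against 1.68, 1.42, 1.06 and 1.80 CPM. It was low throughout, at 11 to 50 reads per library, and overlapped at Sham + CD replicate 3 (0.61 ± 0.22, unadjusted p 0.0151, and 0.55 with an unadjusted p of 0.0518 in the covariate fit). Dusp6, a phosphatase that acts on ERK in the cytoplasm, and Btg2, an antiproliferative gene induced by activity, differed by 0.18 ± 0.07 (unadjusted p 0.0186) and 0.29 ± 0.12 (unadjusted p 0.0278). Dusp6 was separate between the groups, at 12.8 to 14.4 against 14.5 to 16.97 CPM, and Btg2 overlapped at Sham + VH replicate 1. In the covariate fit Dusp6 was at 0.10 (unadjusted p 0.196) and Btg2 at 0.29 (unadjusted p 0.0511). Among members that did not reach an unadjusted p under 0.05 with edgeR, Jun was at -0.02 (unadjusted p 0.762), Npas4 at -0.13 (0.255), Nr4a1 at 0.33 (0.053) and Fosb at 0.49 (0.115). Fosb was at 0.92 (unadjusted p 0.00246) and Nr4a1 at 0.11 (unadjusted p 0.48) in the covariate fit.

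**Figure D1:**
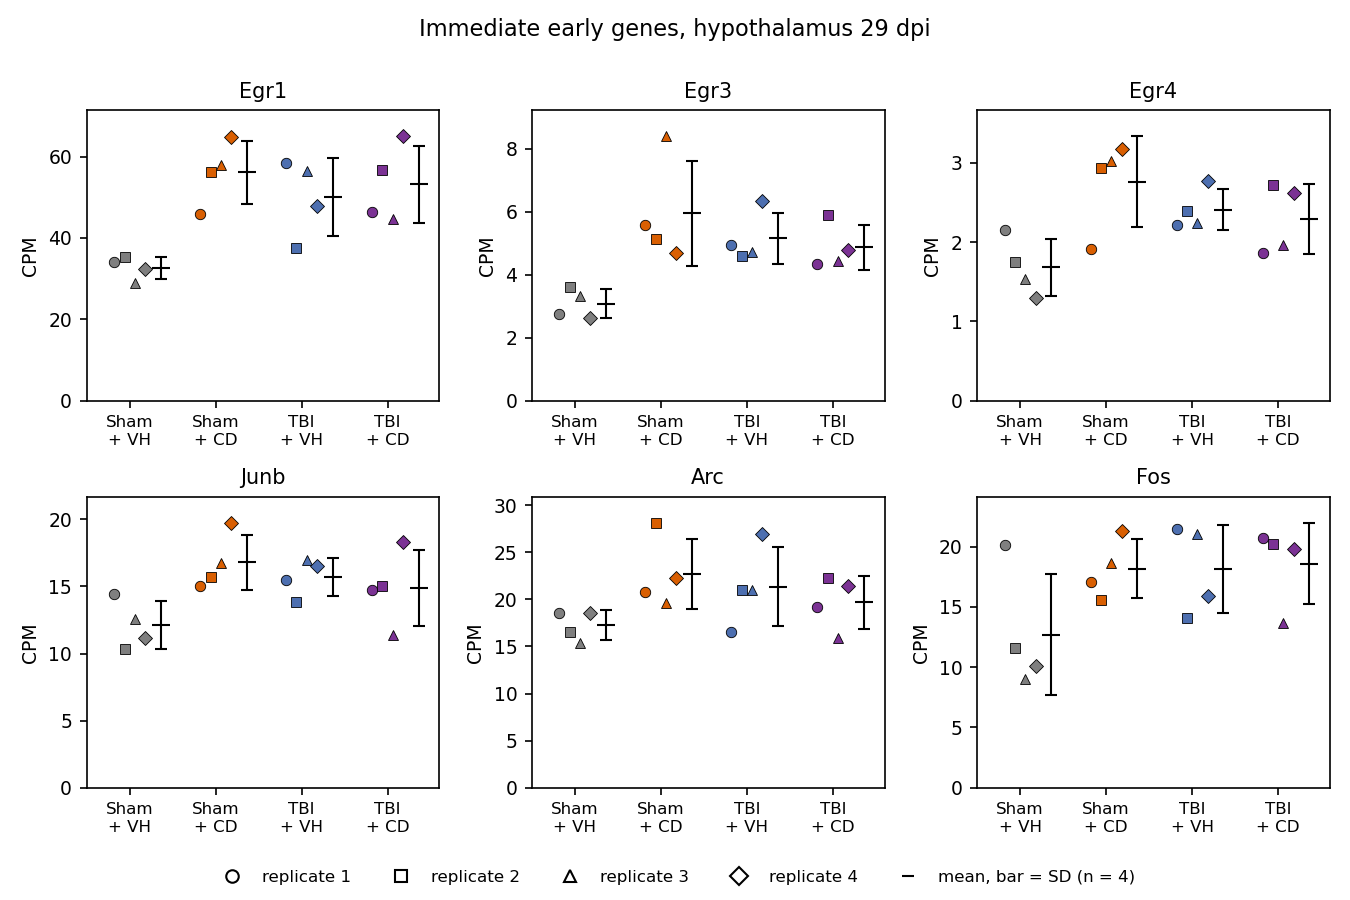
Level of Egr1, Egr3, Egr4, Junb, Arc and Fos in each of the 16 hypothalamus libraries at 29 dpi, in CPM on linear axes that start at 0, by group, with one symbol per replicate number and a bar for the mean and SD (n = 4). Egr1 lies between 29.0 and 35.2 CPM in Sham + VH and between 45.9 and 64.7 CPM in Sham + CD, while Fos overlaps at Sham + VH replicate 1.

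The promoter sequences of these genes are shown because immediate early genes share short elements close to the start of transcription, and a reader can see which of these letters the genes carry. The RefSeq promoter table (GRCm38.p6) matched 6 of the 9 genes (Fos, Junb, Egr4, Btg2, Dusp5 and Dusp6). The 250 bases before the start are printed for 4 of them, 5′ to 3′ on the strand of the gene, at chr12:85473640-85473889 (Fos, plus), chr6:85513590-85513839 (Egr4, minus), chr19:53528895-53529144 (Dusp5, plus) and chr1:134079156-134079405 (Btg2, minus). Capitals mark matches on either strand to the cyclic AMP response element (CRE) core TGACG, the full CRE TGACGTCA, the CArG box bound by serum response factor and the TATA box TATAAA.
Fos: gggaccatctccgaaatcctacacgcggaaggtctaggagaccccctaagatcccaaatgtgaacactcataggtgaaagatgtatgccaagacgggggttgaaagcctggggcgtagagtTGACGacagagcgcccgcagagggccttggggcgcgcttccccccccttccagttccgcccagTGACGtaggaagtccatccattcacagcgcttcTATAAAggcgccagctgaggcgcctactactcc
Egr4: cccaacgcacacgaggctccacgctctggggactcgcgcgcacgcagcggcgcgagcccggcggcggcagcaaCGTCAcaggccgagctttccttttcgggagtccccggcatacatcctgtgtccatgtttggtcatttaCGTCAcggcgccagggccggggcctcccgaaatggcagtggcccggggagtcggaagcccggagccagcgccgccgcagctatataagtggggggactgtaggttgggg
Dusp5: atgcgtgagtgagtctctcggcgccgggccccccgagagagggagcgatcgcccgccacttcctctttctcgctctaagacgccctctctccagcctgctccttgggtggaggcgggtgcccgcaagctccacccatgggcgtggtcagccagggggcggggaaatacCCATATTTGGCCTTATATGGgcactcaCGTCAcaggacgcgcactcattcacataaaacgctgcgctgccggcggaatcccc
Btg2: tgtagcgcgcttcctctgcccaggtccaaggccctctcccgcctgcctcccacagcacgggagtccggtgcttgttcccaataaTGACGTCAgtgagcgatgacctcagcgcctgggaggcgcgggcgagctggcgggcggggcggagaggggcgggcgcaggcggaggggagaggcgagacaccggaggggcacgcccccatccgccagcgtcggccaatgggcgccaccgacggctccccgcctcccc

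Fos held the CRE core at 129 and 66 bases before the start and a TATA box at 33 bases. Egr4 held the core at 177 and 109 bases, on the minus strand relative to the gene, and Dusp5 held 1 core at 55 bases beside 2 CArG boxes at 82 and 72 bases. Btg2 held a full CRE at 166 bases, which contains the core on both strands. Junb, not printed, had 1 core at 106 bases, Dusp6 had no match, and the Egr binding site GCGGGGGCG was found in none of the 6 windows. Among all 32851 promoter windows of this length in the table, 17.8% held the CRE core, 1.55% the full CRE, 1.47% a CArG box, 12.4% the TATA letters and 2.57% the Egr site. These matches describe letters in the windows and no binding was measured. The starts are those of RefSeq and can differ from the GENCODE gene bounds given above.

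In injured mice the same drug comparison gave other values. Egr1 was at 58.4, 37.6, 56.5 and 47.9 CPM in TBI + VH and at 46.5, 56.7, 44.8 and 65.0 CPM in TBI + CD, a log2 difference of 0.08 (95% confidence interval -0.21 to 0.36). Egr3 was at 4.95, 4.59, 4.72 and 6.35 CPM in TBI + VH and at 4.34, 5.89, 4.44 and 4.78 CPM in TBI + CD, a difference of -0.09. All 4 Sham + VH libraries lay below each of the other 12 hypothalamus libraries for both genes. This order was met by 16 of 17165 genes (0.0932%), and the opposite order, with Sham + VH above the other 12 libraries, by 15 (0.0874%). A part of this order, Sham + VH wholly below Sham + CD, was met by 781 genes. Egr1 and Egr3 were picked by that sham difference, so the share of all genes does not measure how rare the order is for them. For Fos, Egr4 and Dusp5, 3 of the 4 Sham + VH libraries were below the other 12.

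The test of the difference between the injured and the sham drug comparison gave an unadjusted p of 0.00198 for Egr1 and of 0.000759 for Egr3. Egr1, Egr3 and Btg2 were picked by their sham difference, which this test uses again, so their p-values in it are a description. Across the list it was under 0.05 for 7 of 40 genes (Egr1, Egr3, Egr4, Junb, Arc, Btg2 and Nptx2), against 5.16% of all genes. No gene passed after adjustment over all genes in this test with edgeR (smallest adjusted p 0.791, with 885 genes at an unadjusted p under 0.05, and 0 called with 886 such genes by DESeq2). In injured mice alone 2 of the 40 were higher with candesartan, Dusp6 and Nptx2 (5.0% of the list against 1.79% of all genes), and 1, Btg2, was lower (1.28% of all genes were). Btg2 thus differed by 0.29 in sham mice and by -0.33 in injured mice (unadjusted p for the difference 0.00209). Over all genes the injured comparison held 526 genes at an unadjusted p under 0.05 by edgeR, 481 by DESeq2, and none called by either.

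**Figure D2:**
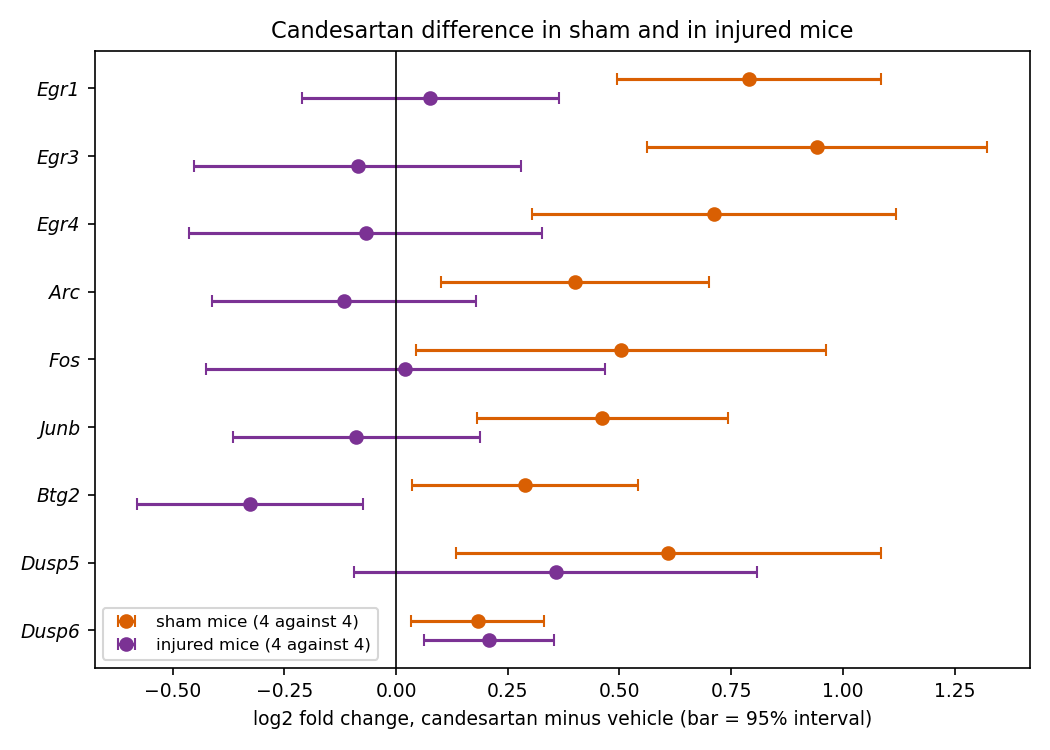
Log2 fold change of candesartan over vehicle in the hypothalamus at 29 dpi for the 9 immediate early genes with an unadjusted p under 0.05 in sham mice, shown for sham and for injured mice (4 libraries against 4 each), with bars for the 95% confidence interval. Since the genes were chosen by the sham comparison, the injured values are the ones to read, and Egr1 and Egr3 lie at 0.08 and -0.09 there.

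At 3 dpi, where the mice received intraperitoneal injections and no pump, 1 of the 40 genes was higher in sham mice given candesartan and 0 were lower (1.13% of all genes were higher and 0.997% lower). That gene was Junb, at 12.7, 8.80, 13.6 and 10.1 CPM with vehicle and 18.4, 15.7, 11.4 and 16.7 CPM with candesartan (0.46, unadjusted p 0.0123). Egr1 spread widely among the vehicle libraries at 3 dpi, from 21.0 to 65.0 CPM, and its difference was 0.40 (unadjusted p 0.199). Egr3 differed by 0.18 at 3 dpi (unadjusted p 0.541), and the test between the days gave an unadjusted p of 0.0379 (adjusted p 0.909 with edgeR). Over all genes the 3 dpi comparison held 361 genes at an unadjusted p under 0.05 and the test between days 865, with none called in either.

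In the other regions of sham mice at 29 dpi, hippocampal Arc was at 75.5, 91.3, 108 and 81.5 CPM with vehicle and at 183, 146, 125 and 154 CPM with candesartan. These groups did not overlap, and the difference was 0.76 (unadjusted p 0.000168). Hippocampal Egr4 was also separate, at 12.4 to 13.1 CPM against 16.9 to 19.2 CPM (0.48, unadjusted p 0.000165). The hippocampal groups overlapped for Egr1, Egr3, Fos, Junb, Btg2, Dusp5 and Dusp6, and the thalamic groups for Arc and Egr4. Over all genes the hippocampal comparison held 810 genes at an unadjusted p under 0.05 (293 higher, 517 lower) and the thalamic one 540. None was called in either, and the smallest adjusted p in hippocampus was 0.308 with edgeR. Immediate early genes were not counted as a list in these regions. Egr1 differed by 0.40 in hippocampus (unadjusted p 0.036) and by 0.31 in thalamus (unadjusted p 0.0274). Egr3 differed by 0.08 in hippocampus and by -0.67 in thalamus, where 1 vehicle library stood at 16.6 CPM against 2.78 to 4.01 CPM in the other 3. The test of hypothalamus against the mean of both other regions gave an unadjusted p of 0.00557 for Egr3 and an adjusted p of 0.697 with edgeR. It also uses the hypothalamic difference by which Egr3 was picked, so this p-value is a description. No label ties libraries of different regions to a mouse. The test took them as independent, and its p is uncertain if regions of 1 mouse are among them.

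Genes of the renin-angiotensin system, through which the drug acts, came next. Of 20 listed genes, 19 were in the table and 14 had enough reads to be tested. At an unadjusted p under 0.05, 0 of 14 were higher and 0 lower (against 6.12% and 7.1% of all genes), and the smallest adjusted p was 0.387. Ren1 was not among the genes listed. Ren2, Agtr1b, Hsd11b2, Cyp11b2 and Cma1 reached no more than 8 reads in any library and were not tested.

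Agtr1a (chr13:30336441-30382867, plus strand) encodes the main AT1 receptor of the mouse brain, the target of the drug. It stood at 3.06, 2.93, 2.74 and 3.11 CPM in Sham + VH and at 2.72, 1.35, 2.46 and 2.63 CPM in Sham + CD. The candesartan libraries were all lower by a narrow margin between the nearest pair, and replicate 2 was farthest below. The difference was -0.38 ± 0.24 (95% confidence interval -0.90 to 0.14, unadjusted p 0.138), and it was -0.18 without Sham + CD replicate 2 and -0.0048 in the covariate fit. Agtr2, the type 2 receptor, was at 1.39, 1.37, 1.77 and 1.66 CPM against 1.45, 2.55, 2.57 and 1.55 CPM, with overlap (0.39 ± 0.24, unadjusted p 0.124).

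Agt (chr8:124556534-124569706, minus strand) encodes angiotensinogen, which astrocytes make in the brain. It was at 329, 342, 324 and 353 CPM in Sham + VH and at 348, 365, 370 and 369 CPM in Sham + CD, with overlap at replicate 1 of the drug group (0.11 ± 0.07, unadjusted p 0.13). Ace (chr11:105967945-105989964, plus strand), the converting enzyme, was at 60.3, 61.3, 61.6 and 63.5 CPM against 56.2, 59.8, 50.3 and 61.0 CPM (-0.11 ± 0.06, unadjusted p 0.056), and -0.06 without Sham + CD replicate 3. Mas1, a receptor for angiotensin-(1-7), differed by 0.39 ± 0.54, Atp6ap2, the prorenin receptor, by 0.06 ± 0.07 and Lnpep, which binds angiotensin IV, by -0.07 ± 0.09.

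**Figure D3:**
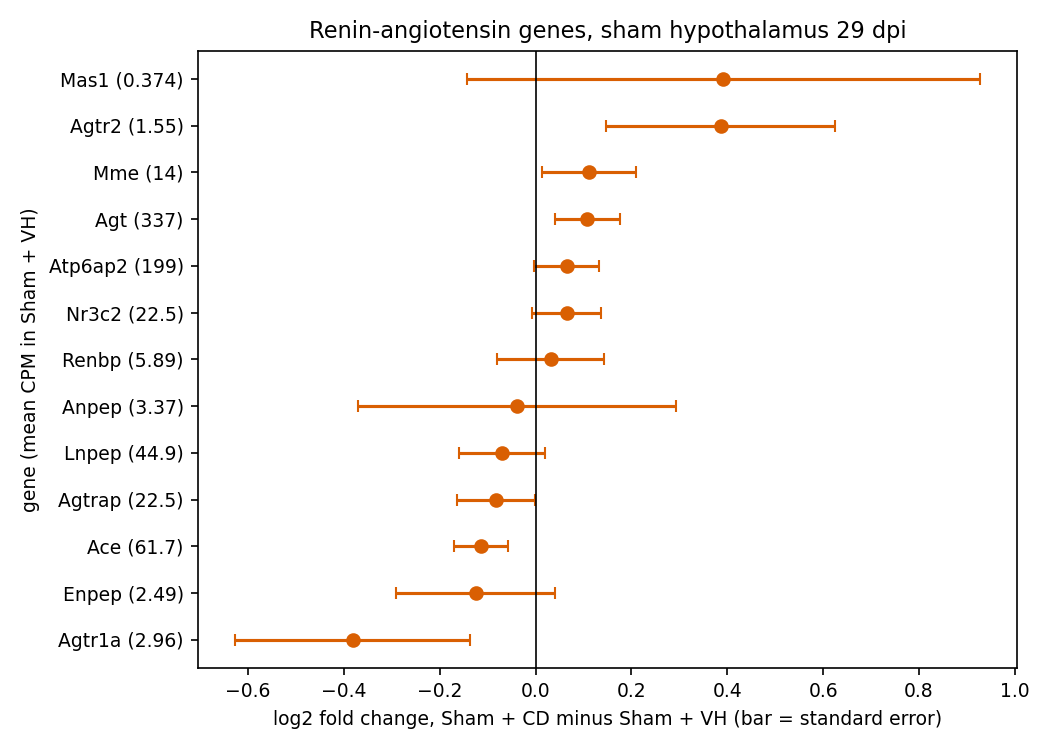
Log2 fold change of Sham + CD over Sham + VH for 13 of the 14 renin-angiotensin genes tested in the hypothalamus at 29 dpi, with bars for the standard error and the mean CPM in Sham + VH in brackets after each name. The points run from -0.38 for Agtr1a to 0.39 for Mas1, and the genes at these ends have wide bars.

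Beside Egr1 and Egr3, DESeq2 called 7 genes. Lama5 (chr2:180176373-180225859, minus strand) encodes a laminin chain of basement membranes. It was at 18.9, 18.1, 17.7 and 20.4 CPM in Sham + VH and at 14.1, 12.2, 11.3 and 13.6 CPM in Sham + CD, with a wide gap between the groups (-0.55 ± 0.11, adjusted p 0.00874 with DESeq2 and 0.356 with edgeR). Slc38a5 (chrX:8271133-8280179, plus strand) encodes a glutamine transporter that is found in brain endothelium. It was at 3.66, 3.30, 4.45 and 4.86 CPM against 2.32, 2.83, 2.24 and 2.12 CPM, again with no overlap (-0.77 ± 0.15, adjusted p 0.0196 with DESeq2). In injured mice Slc38a5 was at 2.61, 2.53, 2.42 and 2.16 CPM with vehicle and at 2.39, 2.76, 3.17 and 2.62 CPM with candesartan, with overlap (0.18 ± 0.15, unadjusted p 0.243).

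Eno3 (chr11:70657202-70662513, plus strand), the muscle form of the glycolytic enzyme enolase, was at 12.2 to 14.2 CPM in Sham + VH and at 9.17 to 10.9 CPM in Sham + CD (-0.39 ± 0.09, adjusted p 0.0494 with DESeq2). Ttll8 (chr15:88890633-88954418, minus strand), an enzyme that adds glycine to tubulin of cilia, was at 5.33, 7.78, 6.31 and 8.28 CPM against 4.06, 2.34, 2.68 and 2.12 CPM. The groups of Ttll8 were separate and the difference was -1.32 ± 0.34 (adjusted p 0.0494 with DESeq2), but with the cilia score as a covariate it was -0.55. Rps26 (chr10:128624534-128626747, minus strand), a protein of the small ribosomal subunit, was at 48.9, 48.3, 55.7 and 50.5 CPM against 58.8, 59.5, 71.5 and 67.6 CPM (0.34 ± 0.07, adjusted p 0.00874 with DESeq2). Its processed copies in the genome could share reads with it, so its level is uncertain.

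The remaining genes that DESeq2 called, Ttr and Rn45s, were uneven within Sham + CD. Ttr encodes transthyretin, which choroid plexus makes in large amounts. It stood at 7.66, 3.92, 1.60 and 2.59 CPM in Sham + VH and at 14.7, 5.92, 5.98 and 162 CPM in Sham + CD, and its log2 fold change was 3.57 ± 0.90, and 1.14 without Sham + CD replicate 4. The summed level of 15 genes of choroid plexus epithelium was 579 CPM in that library and 324 to 350 CPM in the other 3 candesartan libraries, against 277 to 287 CPM in Sham + VH. Rn45s, the ribosomal RNA precursor, was at 259, 262, 303 and 313 CPM against 274, 1352, 513 and 2553 CPM. Sham + CD replicate 1 was within the vehicle range and replicate 4 was the highest (2.05 ± 0.48, adjusted p 0.0494 with DESeq2, and 1.33 without replicate 4). Precursor reads in libraries made by poly(A) selection also depend on how much ribosomal RNA carried over, and this was not tested.

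By the rule of lowest p among genes with separate groups, Ndufa8, Coa3, Rplp1, Rpsa and Dynlrb1 were higher, and Ildr2, Gpc2, Slc6a6, Ttll13 and Zic5 lower. Zic5, a zinc finger factor, was at -0.72, and at -0.45 in the covariate fit. Gpc2, a heparan sulfate proteoglycan of growing axons, was at 4.42 to 4.92 CPM in Sham + VH and at 3.24 to 3.51 CPM in Sham + CD (-0.45 ± 0.10, unadjusted p 0.000298, and -0.44 with the cilia score as a covariate). Slc6a6, the taurine transporter, was at 142 to 159 CPM against 121 to 134 CPM (-0.21 ± 0.05, unadjusted p 0.0004). Ildr2, a membrane protein, was at 160 to 178 CPM against 119 to 154 CPM (-0.29 ± 0.06, unadjusted p 0.00027). Dynlrb1, a light chain of the dynein motor, was at 121 to 146 CPM against 149 to 171 CPM (0.31 ± 0.07, unadjusted p 0.000308). In these genes every candesartan library lay on one side of every vehicle library, which is what the rule selects.

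Genes of motile cilia and ependyma held the most members at an unadjusted p under 0.05 on the lower side. Of 26 tested, 17 were lower (65.4% against 7.1% of all genes), 0 were higher, and 11 did not overlap (42.3% against 4.7%). The median log2 fold change was -1.31. In bulk tissue fewer cells of a type and less RNA per cell cannot be told apart. Foxj1 (chr11:116330704-116335399, minus strand), the master factor of motile cilia, was at 34.9, 45.3, 31.2 and 34.1 CPM in Sham + VH and at 33.6, 11.1, 9.61 and 11.7 CPM in Sham + CD. Replicate 1 of the drug group was at the vehicle level and the other 3 were well below it (-1.17 ± 0.49, unadjusted p 0.0291, and -0.06 in the covariate fit, whose score holds this list). Hydin, of the central pair of the axoneme, was at 19.8, 22.2, 16.6 and 19.4 CPM against 15.5, 3.76, 3.80 and 4.43 CPM, and its difference was -1.55 (-0.16 in the covariate fit). Spag16, another protein of the central pair, was at 6.12, 7.22, 5.48 and 6.88 CPM against 3.77, 0.531, 1.23 and 1.08 CPM (-2.04, unadjusted p 0.00896, and -0.46 in the covariate fit). Sntn, of the tips of motile cilia, was at 2.21 to 2.99 CPM in Sham + VH and at 1.74, 0, 0.0559 and 0.144 CPM in Sham + CD (-2.53, and -0.23 in the covariate fit).

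These counts depend on single libraries. The count of 17 was 5 without Sham + VH replicate 2, 3 without Sham + CD replicate 2, 4 without replicate 3 and 3 without replicate 4. At an unadjusted p under 0.05, 0 of 26 were lower or higher in injured mice (1.28% and 1.79% of all genes were) and at 3 dpi (0.997% and 1.13%), so a count of 0 is near the background. The sign in injured mice was that in sham mice for 24 of the 26. The cilia list itself supplies the covariate, and with it 1 of the 26 was lower (3.85% against 1.88% of all genes) and 2 were higher (7.69% against 2.04%). Whether the dissection of the ventricle wall differed between the mice was not tested.

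Tanycyte genes were low in the same libraries. Of 17 tested, 10 were lower (58.8% against 7.1%) and 0 higher, with a median of -0.59, and in the covariate fit 0 were either. Their summed level was 472 to 554 CPM in Sham + VH and 470, 395, 380 and 370 CPM in Sham + CD. Rax, a homeobox factor that tanycytes require, was at 1.85, 2.99, 2.43 and 2.43 CPM against 1.62, 0.177, 0.112 and 0.324 CPM (-2.22, and -0.05 in the covariate fit). Fgf10, a growth factor of tanycytes, was at 5.88 to 7.60 CPM against 3.63 to 5.62 CPM (-0.51 ± 0.17, unadjusted p 0.00675, and -0.26 with an unadjusted p of 0.102 in the covariate fit). Vim, which encodes vimentin, was at 39.8 to 52.8 CPM against 37.3, 21.8, 27.7 and 19.9 CPM (-0.71, and -0.14 in the covariate fit). In Rax and Vim the low values were in the same 3 libraries that were low in cilia genes.

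Genes of the vessel wall had mostly negative values, and 2 of 27 endothelial and 3 of 17 mural genes were positive. Of the 27 endothelial and blood-brain barrier genes, 6 were lower at an unadjusted p under 0.05 (22.2% against 7.1% of all genes) and 0 higher, with a median of -0.33, and 1 did not overlap on the lower side (3.7% against 4.7%). Vwf, the von Willebrand factor of endothelium, was at 8.39, 6.85, 7.08 and 7.66 CPM against 6.72, 4.25, 5.87 and 3.78 CPM, with no overlap (-0.56 ± 0.17, unadjusted p 0.00435). Slc2a1, the glucose transporter of the barrier, was at 76.7, 88.6, 75.3 and 82.9 CPM against 79.4, 57.8, 56.2 and 56.1 CPM (-0.38 ± 0.15, unadjusted p 0.0223), and Ocln, of tight junctions, differed by -0.85 ± 0.34 (unadjusted p 0.024). Slc2a1 and Ocln overlapped at Sham + CD replicate 1. In the covariate fit Vwf was at -0.31 (unadjusted p 0.0519), Slc2a1 at -0.09 (0.378) and Ocln at -0.10 (0.578). Of 17 genes of mural cells and vascular smooth muscle 3 were lower (17.6%), among them Notch3, a receptor of mural cells, at 26.5 to 29.7 against 18.2 to 23.8 CPM (-0.33 ± 0.09, unadjusted p 0.00258). With the covariate 0 of 27 endothelial genes and 2 of 17 mural genes were lower, beside 1.88% of all genes. The injured and sham comparisons differed at an unadjusted p under 0.05 for 7 of the 27 endothelial genes and 4 of the 17 mural genes, beside 5.16% of all genes.

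**Figure D4:**
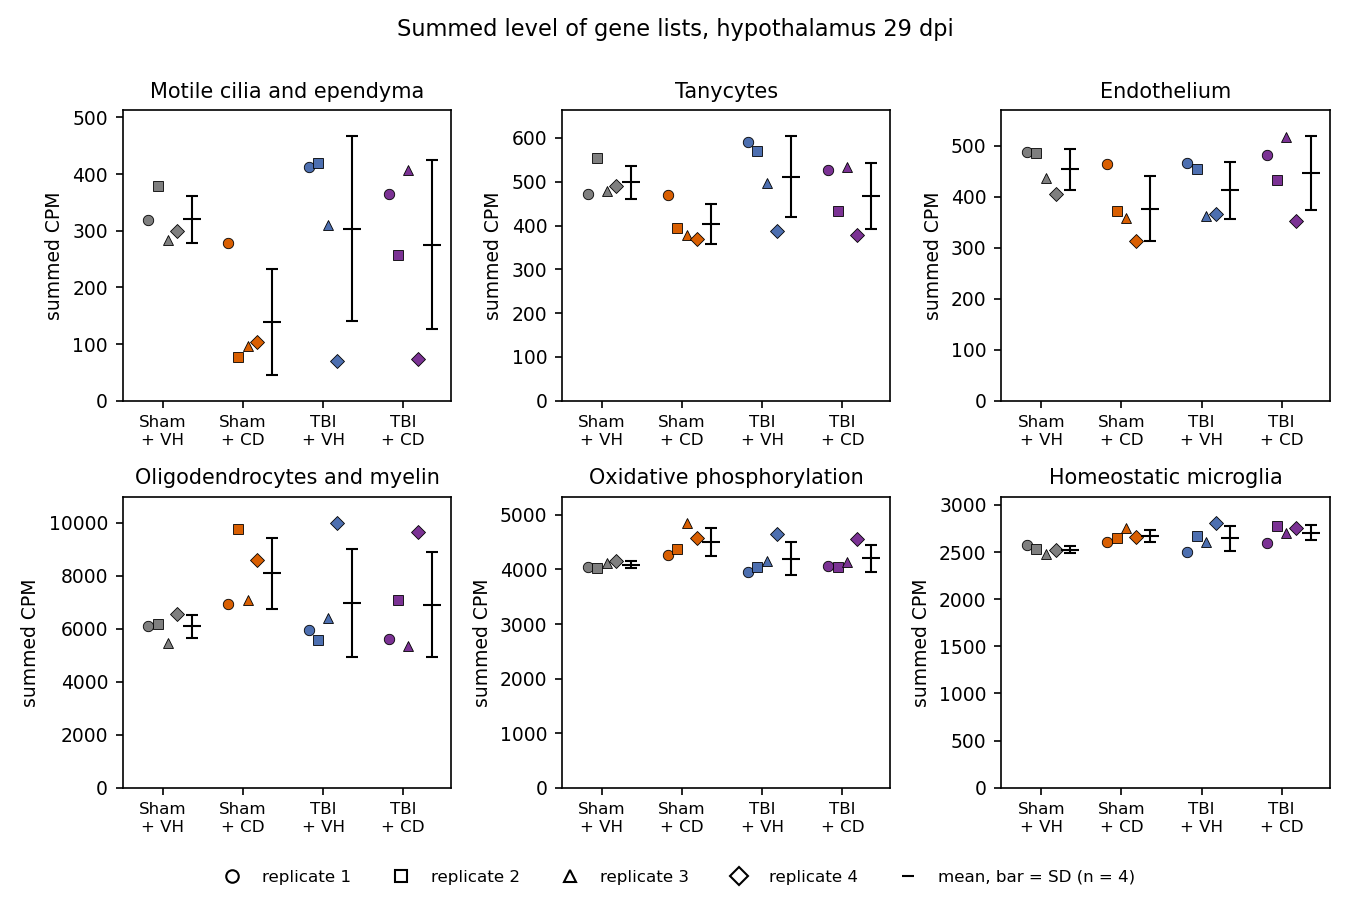
Summed level of the genes of 6 lists in each hypothalamus library at 29 dpi, in CPM on axes that start at 0, by group, with one symbol per replicate number and a bar for the mean and SD (n = 4). The cilia and ependyma sum is 76.4 to 103 CPM in Sham + CD replicates 2 to 4 and 278 CPM in replicate 1, against 284 to 378 CPM in Sham + VH.

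Myelin genes lay on the other side. All 21 genes of oligodendrocytes and myelin had a positive log2 fold change, 5 were higher at an unadjusted p under 0.05 (23.8% against 6.12%), 8 did not overlap (38.1% against 4.55%), and the median was 0.38. Their summed level was 6122, 6194, 5481 and 6567 CPM in Sham + VH and 6945, 9782, 7095 and 8591 CPM in Sham + CD. It was also high in both injured libraries that were low in cilia genes, at 9981 CPM in TBI + VH replicate 4 and 9659 CPM in TBI + CD replicate 4. Mbp, which encodes myelin basic protein, was at 2208, 2244, 2020 and 2511 CPM against 2664, 3731, 2585 and 3358 CPM (0.46 ± 0.22, unadjusted p 0.0545), and Ermn, a cytoskeletal protein of oligodendrocytes, differed by 0.50 ± 0.20 (unadjusted p 0.0252, and 0.10 in the covariate fit). With the covariate 0 of the 21 were higher and the median was -0.02.

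Markers of neurons and of the other glia differed by small amounts, and their counts stand against 6.12% higher and 7.1% lower among all genes. Of 18 general neuronal genes 4 were higher (22.2%) and 0 lower, among them Thy1, a surface protein of neurons, at 444 to 495 CPM against 517 to 583 CPM (0.24 ± 0.10). Of 17 astrocyte genes 5 were higher (29.4%) and 1 lower (5.88%), and Glul, glutamine synthetase, differed by 0.17 ± 0.06. Of 21 genes of homeostatic microglia 5 were higher (23.8%) and 0 lower, and all 21 had a positive value with a median of 0.15. Selplg, a microglial surface protein, was at 24.6 to 26.5 CPM in Sham + VH and at 28.4 to 35.9 CPM in Sham + CD (0.28 ± 0.09, unadjusted p 0.00419). C1qa and Csf1r, a complement component and the receptor for colony stimulating factor 1, differed by 0.26 and 0.15. With the covariate 0 of 18 neuronal, 0 of 17 astrocyte and 1 of 21 microglial genes (4.76%) were higher, against 2.04% of all genes. The values were then 0.06 for Thy1 and for Glul, 0.15 for Selplg (unadjusted p 0.0717), 0.12 for C1qa and 0.08 for Csf1r.

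Genes of inflammation were counted against the same shares of all genes, 6.12% higher and 7.1% lower. Of 22 inflammatory mediators 0 were higher and 1 lower (4.55%), Nfkb1, at 27.9 to 30.9 against 22.5 to 28.7 CPM. Of 27 interferon response genes 1 was higher (B2m, 0.20) and 1 lower (Ifih1, -0.38), 3.7% each, and of 18 reactive astrocyte genes 1 was lower (Vim, 5.56%). Of 22 genes of activated microglia and macrophages 3 were higher (13.6%) and 2 lower (9.09%). On a list of 22 each gene is 4.55%, so both counts lie within a few genes of the shares of all genes. Lyve1, a marker of perivascular macrophages, was among the higher ones at 1.31, and Lgals3, galectin-3, among the lower ones at -1.33. Lgals3 was at 2.12, 1.81, 1.54 and 2.23 CPM in Sham + VH and at 1.33, 0.496, 0.727 and 0.612 CPM in Sham + CD, with no overlap (unadjusted p 0.00253, and -0.55 with an unadjusted p of 0.0306 in the covariate fit). Nfkb1 was at -0.09, B2m at 0.12 and Ifih1 at -0.22 in that fit, each with an unadjusted p over 0.05, and of the 22 activated microglia genes 1 was higher (4.55% against 2.04% of all genes) and 3 were lower (13.6% against 1.88%).

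Genes of oxidative phosphorylation had small positive log2 fold changes, from 0.05 to 0.25. Of 20 listed, 11 were higher (55% against 6.12%), 0 were lower, 9 did not overlap (45% against 4.55%) and all 20 were positive, with a median of 0.17. When all nuclear genes with symbols of complex I, III, IV and V subunits were taken, a list made after seeing these values, 46 of 75 were higher (61.3%) and 0 lower. Ndufa8, a complex I subunit, was at 79.9, 79.6, 81.9 and 80.1 CPM in Sham + VH and at 94.5, 92.8, 102 and 93.8 CPM in Sham + CD. The vehicle libraries were nearly equal and every candesartan library lay above them (0.25 ± 0.05, unadjusted p 7.82e-05). Atp5b, the catalytic beta subunit of ATP synthase, was at 904 to 938 CPM against 979 to 1119 CPM (0.17 ± 0.06), and Cox7b, of complex IV, at 68.9 to 80.9 against 86.2 to 103 CPM (0.26 ± 0.07). In injured mice 0 of the 20 were higher or lower, where 1.79% and 1.28% of all genes were. With the covariate 0 of 20 and 6 of 75 were higher (8% against 2.04%), Ndufa8 was at 0.18, Atp5b at 0.07 (unadjusted p 0.146) and Cox7b at 0.16 (unadjusted p 0.0303).

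Ribosomal protein genes, also taken by symbol after seeing values, were higher for 17 of 81 (21% against 6.12% of all genes) and lower for 0, with a median of 0.11, and 7 did not overlap (8.64% against 4.55%). With the covariate 6 of 81 were higher (7.41% against 2.04%). Rplp1 was at 210 to 229 CPM against 250 to 286 CPM (0.26 ± 0.06), and Rpsa at 117 to 127 CPM against 138 to 168 CPM (0.31 ± 0.07, and 0.20 in the covariate fit). Many of these genes have processed copies that can share reads. Among 20 genes of heat shock and unfolded protein response 2 were higher (10% against 6.12%) and 0 lower. Hspa8, a constitutive chaperone, was at 593, 599, 578 and 563 CPM against 674, 649, 706 and 640 CPM (0.19 ± 0.05, unadjusted p 0.000811). Cryab, a small heat shock protein that oligodendrocytes also express, was at 60.04 to 74.6 CPM against 83.96 to 114 CPM (0.49 ± 0.14, unadjusted p 0.00279). In the covariate fit Cryab was at 0.21 and Hspa8 at 0.23, and 8 of the 20 were higher (40% against 2.04% of all genes).

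Of 40 hypothalamic neuropeptide genes 37 were tested, 4 were higher (10.8% against 6.12% of all genes) and 2 lower (5.41% against 7.1%). Tac2, which encodes neurokinin B, was at 25.9, 27.2, 30.2 and 28.2 CPM in Sham + VH and at 37.6, 45.1, 33.6 and 42.2 CPM in Sham + CD, with no overlap (0.51 ± 0.20, unadjusted p 0.0195, and 0.20 with an unadjusted p of 0.244 in the covariate fit). Crh, corticotropin-releasing hormone, was at 3.45, 5.11, 6.53 and 3.67 CPM against 7.76, 5.24, 9.39 and 5.62 CPM and overlapped (0.56 ± 0.22, unadjusted p 0.0196). Penk, proenkephalin, differed by 0.39 ± 0.15 (0.18 in the covariate fit, unadjusted p 0.217), with Sham + CD replicate 3 at 219 CPM against 130 to 135 CPM in the rest of its group. Striatal neuron genes were also highest in that library, at a sum of 357 CPM against 229 to 258 CPM in the other 7 sham libraries.

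Sst, somatostatin, was at 142, 164, 135 and 125 CPM against 138, 108, 112 and 121 CPM (-0.24 ± 0.09, unadjusted p 0.0161, and -0.13 with an unadjusted p of 0.156 in the covariate fit). Pomc, the precursor of melanocortins and of corticotropin, was at 29.2, 44.7, 351 and 33.8 CPM against 38.0, 15.4, 18.7 and 32.04 CPM. Its difference of -2.17 rests on Sham + VH replicate 3, in which genes of the pituitary summed to 561 CPM against 445 to 461 CPM in the other 3 vehicle libraries. Avp, which codes for vasopressin, was at 250, 233, 283 and 216 CPM against 232, 246, 333 and 361 CPM (0.25 ± 0.16, unadjusted p 0.135). Oxt was at 169 to 210 CPM against 181, 84.2, 168 and 174 CPM (-0.29 ± 0.22, unadjusted p 0.206). The groups overlapped for Avp and Oxt. With the covariate 5 of the 37 genes were higher (13.5% against 2.04%) and 1 was lower (2.7% against 1.88%), and Oxt was at 0.15.

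Receptors of neuropeptides and hormones included 1 higher (2.63%) and 3 lower (7.89%) genes of 38 tested, against 6.12% and 7.1% of all genes, so that the lower share was near that of all genes. With the covariate 3 of the 38 were higher (7.89% against 2.04%) and 1 was lower (2.63% against 1.88%). Trhr, the receptor for thyrotropin-releasing hormone, was at 14.1 to 16.8 CPM against 16.9 to 20.4 CPM (0.28 ± 0.12). Insr, the insulin receptor, was at 65.4 to 73.2 against 60.6 to 67.6 CPM (-0.13 ± 0.05, unadjusted p 0.0125), Igf1r differed by -0.24 and Vipr2, a receptor for vasoactive intestinal peptide in the suprachiasmatic nucleus, by -0.88 ± 0.35. Vipr2 was lowest in Sham + CD replicates 2 and 3, at 2.76 and 3.35 CPM, against 7.505 to 12.3 CPM in Sham + VH. Region-defining transcription factors were higher for 1 (3.33% against 6.12%) and lower for 3 (10% against 7.1%) of 30. The lower ones were Six3, Six6 and Rax, and Six6 was at 11.96, 13.3, 13.6 and 10.9 CPM against 11.1, 4.43, 6.09 and 7.52 CPM. In the covariate fit 0 of the 30 were lower (1.88% of all genes) and 2 higher (6.67% against 2.04%), Six3 was at -0.09, Six6 at -0.0019, Trhr at 0.26 (unadjusted p 0.081), Igf1r at -0.09 and Vipr2 at -0.23 (unadjusted p 0.336).

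Hormone-responsive and clock genes were compared in the same way. Of 20 glucocorticoid response genes 2 were higher (10% against 6.12%), Arl4d at 0.77 and Mt1 at 0.22, and 0 were lower. Tsc22d3, a gene that glucocorticoids induce, was at 50.6 to 61.3 CPM against 48.7 to 72.8 CPM (0.15 ± 0.14, unadjusted p 0.307). Of 21 clock genes 1 was lower (4.76% against 7.1%), Hlf, at -0.23, and Per1 was at -0.10 (unadjusted p 0.313). Of 11 long non-coding RNAs 2 were lower (18.2%), Miat and Snhg11, and Miat was at 578 to 663 CPM against 458 to 576 CPM (-0.24 ± 0.07, unadjusted p 0.00367). With the covariate Arl4d was at 0.44, Mt1 at 0.09, Hlf at -0.10 and Snhg11 at -0.10, each with an unadjusted p over 0.05.

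Markers of tissue that could come along in the dissection were also compared, again beside 6.12% higher and 7.1% lower among all genes. Of 8 blood cell genes 3 were higher (37.5%), and all 3 were hemoglobin genes. Hbb-bs was at 12.2, 9.71, 3.995 and 1.09 CPM in Sham + VH and at 6.95, 46.9, 17.2 and 18.5 CPM in Sham + CD, with overlap at replicate 1 of the drug group (1.74, unadjusted p 0.00958, and 0.84 with an unadjusted p of 0.156 in the covariate fit), although Hbb genes are near-identical copies that can share reads. The choroid plexus list held 3 higher (20%) and 1 lower (6.67%) of 15, the striatal list 3 higher of 11 (27.3%), the pituitary list 2 lower of 7 (28.6%), and the lists for thalamic neurons and midbrain dopamine neurons 0 of 13 and 0 of 10. The part that these tissues play in the differences above was not tested. Of 15 genes of cortical, hippocampal and amygdala neurons 2 were higher (13.3%) and 1 lower (6.67%), of 13 of oligodendrocyte precursors 1 was higher (7.69%), and of 20 of fibroblasts and matrix 2 were lower (10%, Col4a1 and Col4a2, both at -0.31, and at -0.07 and -0.06 in the covariate fit). In the covariate fit 6 of 15 choroid plexus genes (40%) and 1 of 11 striatal genes (9.09%) were higher, beside 2.04% of all genes. The blood cell list then had 0 of 8 higher, and the pituitary list 0 of 7 lower beside 1.88% of all genes. In that fit 2 of 10 midbrain dopamine genes were lower (20% against 1.88%), Slc6a3, the dopamine transporter, at -1.48 (unadjusted p 0.012) and En1, a homeobox factor, at -1.40 (unadjusted p 0.0128), against -0.37 and -0.49 in the main fit. In the injured comparison 10 of 13 thalamic genes were higher, beside 1.79% of all genes.

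**Figure D5:**
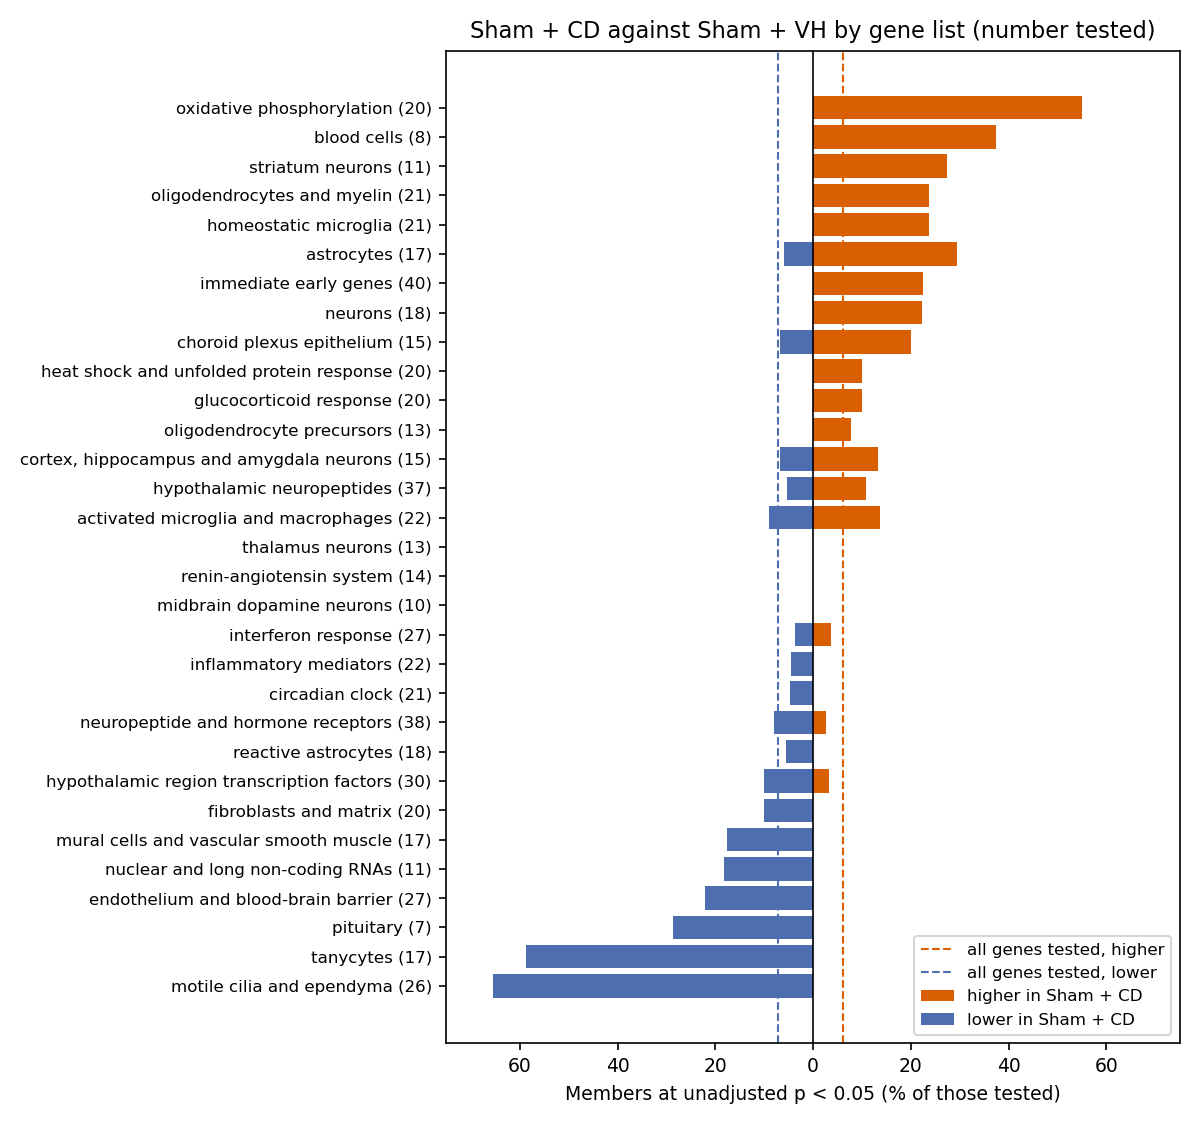
Share of the tested members of each gene list at an unadjusted p under 0.05 in sham mice, with bars to the right for genes higher and to the left for genes lower in Sham + CD, the number tested in brackets, and dashed lines for all genes tested (6.12% higher, 7.1% lower). Ependyma and tanycyte genes reach 65.4% and 58.8% on the lower side, and oxidative phosphorylation and immediate early genes 55% and 22.5% on the higher side.

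Across the 17165 genes the log2 fold changes of sham and injured mice had a Pearson r of 0.0934, and 54.0% had the same sign. Among the 2269 genes at an unadjusted p under 0.05 in sham mice r was 0.256 with 63.5% of the same sign. The 26 cilia and ependyma genes had an r of 0.181 with 92.3% of the same sign, and the 40 immediate early genes an r of 0.0090 with 42.5%. These comparisons share no library. Genes are not independent replicates, and these values are given as a description only.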

How the data were processed

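The authors prepared RNA from dissected hypothalamus (RNA quality number above 8.0), made stranded poly(A) libraries, and used bcl2fastq, MapSplice on mm10 and HTSeq 0.9.1; they deposited raw read counts per gene, and their own tests used DESeq2 1.16.1. The annotation and strand setting of the counting are not given in the sources used here, so reads of overlapping genes cannot be told apart.

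Counts of the 16 hypothalamus libraries at 29 dpi (0 columns without a sample) passed through filterByExpr and TMM scaling and were fitted by group with edgeR 4.0.16 (two-sided quasi-likelihood F test, Benjamini-Hochberg adjustment over all genes tested, limma 3.58.1, R 4.3.3). Calls needed an adjusted p below 0.05 and a log2 fold change of more than 0.32 in either direction. DESeq2 1.42.0 was the main alternative. Scores average log2 CPM with a prior count of 2. The scripts were tested on simulated counts and used Python 3.11.15, pandas 2.3.3, numpy 2.4.6 and matplotlib 3.10.9.

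Genes were named when edgeR or DESeq2 called them, when they had one of the 8 lowest unadjusted p per direction among genes with separate groups and a mean of 1 CPM or more, when they were immediate early or renin-angiotensin genes with separate groups or an unadjusted p under 0.05 (Agtr1a, Agt and Ace in any case), or when they were among the most abundant or lowest-p members of another list. Other genes with values, such as Crh, Oxt, Agtr2, Nr4a1 and Fosb, were chosen after their values were seen. Groups, lists and members were chosen with earlier results of these data known. Libraries of a group differed by more than sampling noise (chi-square per degree of freedom 2.86 to 17.6). The values of 1 renin-angiotensin gene are not reported here. Gene coordinates are from GENCODE vM21 on GRCm38 and promoters from RefSeq.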

Additional observations from a re-analysis of the deposited data

Results flagged for a closer look

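In 6 of the 120 groups of 4 values examined, 1 library lay far from the other 3 by Dixon's test, and chance gives about 1 in 20. Ttr was at 162 CPM in Sham + CD replicate 4. The summed choroid plexus genes were at 579 CPM in the same library. The summed genes of motile cilia and ependyma were at 278 CPM in Sham + CD replicate 1. It was the only library of its group near the vehicle range of 284 to 378 CPM. The summed striatal neuron genes were at 357 CPM in Sham + CD replicate 3. The summed pituitary genes were at 561 CPM in Sham + VH replicate 3, and the summed interferon response genes at 285 CPM in Sham + VH replicate 2.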

How the results depend on the processing

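The number of genes called in sham mice was 0 in the edgeR fit of 16 libraries, 9 with DESeq2, 1 (Egr1) when only the 8 sham libraries were fitted, and 17 with those 8 libraries and a replicate block, of which 3 (Egr1, Lama5 and Rps26) were among the 9. In the 16-library fit the replicate block called 0, with 3083 genes at an unadjusted p under 0.05. Whether the replicate numbers pair the mice is not known, and no source ties a number to a litter or day. Same-numbered libraries of both sham groups deviated together with correlations of 0.02, -0.04, 0.24 and 0.16. Libraries with different numbers gave correlations from -0.17 to 0.21. The comparison between regions called 0 with edgeR and 1 (Tuba1c) with DESeq2.

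The count of genes at an unadjusted p under 0.05 was 673 with the cilia score as a covariate and 911 with a myelin score, an alternative chosen after seeing the data, and from 1199 to 3202 when each replicate was left out in turn (1485 without Sham + VH replicate 2, 1199 without Sham + CD replicate 3). The count of lower cilia and ependyma genes was 1 with either covariate and 3 to 24 when replicates were left out. The count of higher immediate early genes was 6 with either covariate, 9 with the replicate block and 6 to 10 when replicates were left out (6 without Sham + CD replicate 4). These 3 counts were made settings of comparison after seeing the data. Of 464 values of 29 named genes under 16 settings, 0 reversed, and Egr1 ranged from 0.65 to 0.87 and Egr3 from 0.73 to 1.05. The 29 were the DESeq2 calls, the lowest-p genes with separate groups, the 9 immediate early genes, and Agtr1a, Agt and Ace. Genes outside the 29 could change sign, as Oxt did from -0.29 to 0.15 in the covariate fit. Shares of the other lists under DESeq2 were not run. Dusp5 rests on 11 to 50 reads per library, and 5 renin-angiotensin genes at no more than 8 reads were not tested. The cause of these changes was not tested.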
